A study of Homo sapiens with 9 samples.

Results

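Knockdown of lncRNA-OIS1, a long non-coding RNA studied in oncogene-induced senescence, was compared with RAS-induced senescence in BJ cells. BJ cells are human fibroblasts, here immortalised with hTERT, the catalytic subunit of telomerase. The comparison used 6 of the 9 polyA RNA-seq libraries of the series. Hairpins 32-2, 32-3, 32-8 and 32-9 each gave 1 library with lncRNA-OIS1 knocked down and RASG12V, an activated form of RAS, switched on. The senescent libraries had RASG12V switched on with non-targeting hairpin 500 in one and 507 in the other. The remaining libraries are given as values beside these 6. They are a p53 knockdown and a BRD7 knockdown, both with RASG12V, and a control with non-targeting hairpin 500 and no RASG12V activation named in its label. Per the labels all 9 libraries had 14 days of 4-OHT, the ligand 4-hydroxytamoxifen, while the design text describes the control as untreated. Of 13745 genes in the table, 12481 had a value of at least 40 in some library and were tested. The genes reported as having no overlap, 4813 in all, were those in which all 4 hairpin libraries lay above, or all 4 below, both senescent libraries. They were chosen by those values, so non-overlap describes them and does not test them.

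Oncogenic RAS drives proliferation signals and, in normal fibroblasts, a lasting arrest called senescence, in which p53 induces the CDK inhibitor p21 and the RB family shuts down E2F targets. In arrested cells the DREAM complex, made of an RB family member, E2F and the MuvB core, sits on promoters of mitotic genes at a motif called the CHR, often beside a CCAAT box, and on promoters of replication genes at E2F sites. Senescent fibroblasts also lose lamin B1, enlarge their lysosomes and secrete cytokines, proteases and growth factors.

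The values are normalised read counts that the authors had brought to 1 common distribution. Every library totalled 14916466.5 with a median of 340.1 and a lowest value of 20, the floor, shared by 1375 genes in each library. Sequencing depth cannot be read from such values, so no counting error can be given for them. Throughout, the values of the hairpins are listed as 32-2, 32-3, 32-8 and 32-9, and those of the senescent libraries as hairpins 500 and 507. Each library carried its own hairpin, and the labels do not say whether libraries came from separate cultures, so p-values measure only the spread between these libraries. LncRNA-OIS1 itself was not analysed here under that name, and its knockdown was not checked. BRD7 stood at 633, 629, 695 and 653 in the hairpin libraries, against 629 and 537 in the senescent ones, and at 94.6 in its own knockdown. HRAS stood at 11855, 19544, 16651 and 15474 in the hairpin libraries, against 12051 and 11321 in the senescent ones, and was higher in the control at 26557. Fibroblast identity was checked by 20 mesenchymal markers, of which 19 were in the table, with summed values of 187893.9 to 208464.4 in the hairpin libraries, against 169809.1 and 177902.6 in the senescent ones. Of 11 epithelial, 9 leukocyte and 9 endothelial markers, 4, 4 and 2 were in the table, with sums of at most 2125, 255.6 and 218.8 in the hairpin libraries, against at most 1914, 281.5 and 252.3 in the senescent ones.

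The library of hairpin 32-9 stood apart. Across genes its log2 values correlated at r = 0.92 to 0.935 with the other 3 hairpins, which correlated among themselves at 0.981 to 0.982, and the senescent libraries correlated at 0.996. Genes are not independent, so these r values describe libraries only. The median gene spanned 0.54 on the log2 scale over the 4 hairpins and 0.33 without 32-9, while the senescent libraries differed by 0.093. The median distance of a gene from the senescent mean was 0.27 for hairpin 32-2, 0.28 for 32-3, 0.24 for 32-8 and 0.39 for 32-9. CDKN2A, the locus of the inhibitors p16 and ARF, was at 362.3 with hairpin 32-9 and at 20 in each of the 8 others. Adjusted p-values under 0.05 without hairpin 32-9, and list counts that move by over 1.5 times without it, are given beside the values over all 4.

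Over all genes tested, 2129 (17.1%) were higher and 2684 (21.5%) lower in all 4 hairpin libraries than in both senescent libraries, and 7668 (61.4%) overlapped. Most of these distances were small, with a median gap between the nearest libraries of the groups of 0.18 and −0.17 on the log2 scale. No overlap together with a mean change of at least 2-fold was seen for 371 genes higher (2.97%) and 190 lower (1.52%). In limma with Benjamini-Hochberg adjustment, 0 genes passed an adjusted p of 0.05 in either direction (0.0%). The lowest adjusted p was 0.0788, 880 genes were under 0.1, and 2805 genes (22.5%), 1311 higher and 1494 lower, had an unadjusted p under 0.05. Without hairpin 32-9, limma called 80 genes higher (0.641%) and 84 lower (0.673%) in the remaining 3 hairpins, and 60 and 70 of these also had no overlap over all 4. In that smaller comparison 2874 genes were higher (23.0%) and 3476 lower (27.9%) with no overlap. Under median-of-ratios scaling of the deposited values, the side with more genes turned, at 2728 higher and 2479 lower. The plot of counts with single libraries left out shows that the other 5 omissions gave at most 1 call.

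**Figure D1:**
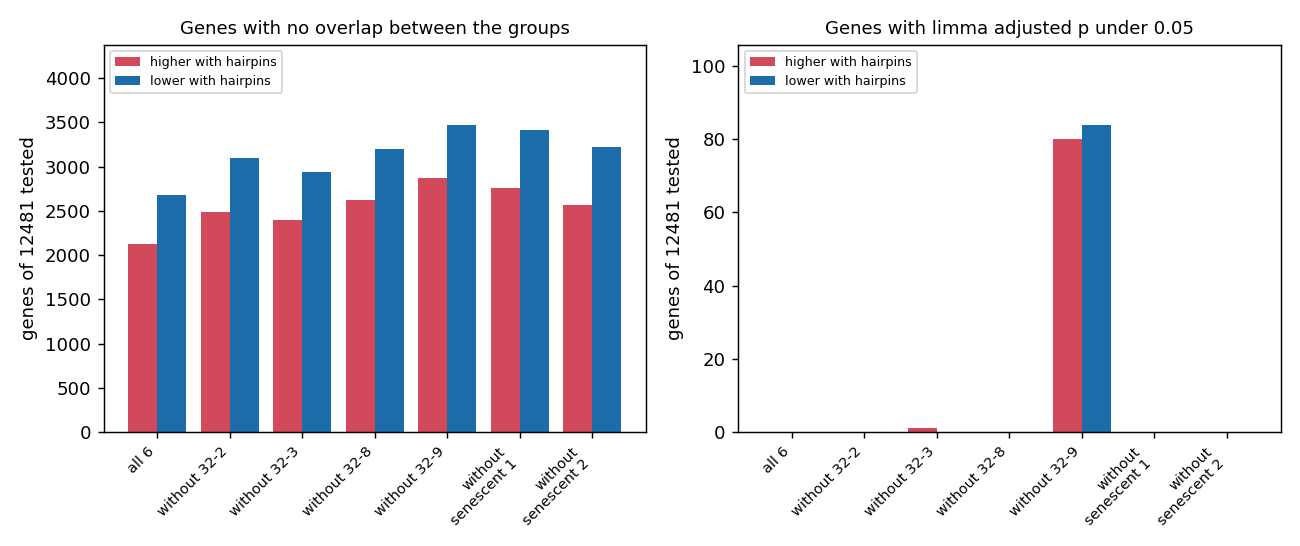
Number of genes with no overlap between the hairpin and senescent libraries (left) and with a limma adjusted p under 0.05 (right), of 12481 tested, with all 6 libraries and with each left out. Red bars are genes higher and blue bars genes lower with lncRNA-OIS1 hairpins. Calls reached 80 higher and 84 lower without hairpin 32-9, and at most 1 in every other setting drawn.

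The 12 genes with the widest gap on each side are of mixed function. FST, which encodes the activin antagonist follistatin, had the widest gap. It stood at 469.7, 446, 524 and 994 in the hairpin libraries, against 69.8 and 68.4 in the senescent ones, and was 8.32-fold higher on the log2 mean (log2 change 3.06, SE 0.35, adjusted p = 0.0788). All 4 hairpins were far above both senescent libraries, 32-9 most of all, and without 32-9 the adjusted p was 0.0138. The p53 and BRD7 knockdowns, which share these senescent libraries as their reference, had 369 and 229, and the control 81.8. PTGS2, the inducible cyclooxygenase COX-2, stood at 13978, 5963, 7855 and 9941 in the hairpin libraries, against 1939 and 1849 in the senescent ones (log2 change 2.25, SE 0.34, adjusted p = 0.0788). SPHKAP, an anchoring protein for protein kinase A, stood at 1072, 1485, 1293 and 920.3, against 306 and 234 in the senescent libraries (log2 change 2.13, SE 0.23, adjusted p = 0.0788). For these 3 genes the gap between the groups was wider than the range over the hairpins, and SPHKAP had an adjusted p of 0.0469 without 32-9.

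SOCS1 and BACH2 did not exceed the floor in either senescent library, so the size of their difference is a lower limit. SOCS1, a feedback inhibitor of cytokine receptors and JAK kinases, stood at 70.3, 66.6, 63.2 and 73.1 in the hairpin libraries and at 20 in both senescent ones. The 4 hairpins lay within a narrow band, and SOCS1 had an adjusted p of 0.0788, or 0.0129 without 32-9. At the floor the spread between the senescent libraries is hidden, so these p-values do not measure it. BACH2, a transcriptional repressor, stood at 129, 69.9, 70.7 and 153 in the hairpin libraries and at 20 in both senescent ones. CADPS2, a protein of secretory vesicles, stood at 85.7, 73.1, 70.6 and 284 in the hairpin libraries, against 24.1 and 23.1 in the senescent ones, with hairpin 32-9 well above the rest. EVI2A, which lies within an intron of NF1 on the opposite strand, stood at 84.6, 135, 97 and 86.8, against 24.1 and 32.2 in the senescent libraries, and whether its reads can be told from those of NF1 depends on strand, and strandedness of the counting is not given in the labels. HES1, a repressor and Notch target, stood at 275, 147, 159.8 and 225 in the hairpin libraries, against 56.7 and 50.2 in the senescent ones (log2 change 1.87, SE 0.29, adjusted p = 0.0788). NTSR1, the neurotensin receptor, stood at 499.7, 481, 527 and 1467, against 146 and 166 in the senescent libraries, and OLFML2B, an olfactomedin-like extracellular protein, at 468, 549, 461 and 521, against 173 and 136. The hairpins agreed closely for OLFML2B, whereas for NTSR1 the 32-9 value was far above the other 3. Without 32-9 the adjusted p was 0.0418 for CADPS2, 0.0418 for NTSR1 and 0.0474 for OLFML2B. With it these values were 0.126 for CADPS2, 0.0999 for NTSR1 and 0.0788 for OLFML2B.

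On the lower side, SPP1, which encodes the secreted phosphoprotein osteopontin, stood at 197, 242, 353 and 92.3 in the hairpin libraries, against 1167 and 1066 in the senescent ones (log2 change −2.49, SE 0.52, adjusted p = 0.0864). GJA5, the gap junction protein connexin 40, stood at 178, 149, 195 and 20 in the hairpin libraries, against 923 and 889 in the senescent ones, and was at the floor with 32-9. Its adjusted p was 0.148, or 0.0389 without 32-9. NAALADL2, a member of a peptidase-like family, stood at 75.7, 80.3, 91.4 and 84.8 in the hairpin libraries, against 251 and 258 in the senescent ones, 3.08-fold lower (log2 change −1.62, SE 0.13, adjusted p = 0.0788). Its 4 hairpin values lay close together, and the adjusted p was 0.0427 without 32-9. SCUBE3, a secreted glycoprotein and the most abundant gene of this set, stood at 8153, 6751, 6785 and 1170.3 in the hairpin libraries, against 19758 and 20271 in the senescent ones. Its separation was clear in every hairpin, but 32-9 was far below the other 3, and the adjusted p was 0.213 with it and 0.0427 without it. ADAMTS19, a metalloprotease, stood at 473, 612, 319.6 and 111, against 1772 and 1787 in the senescent libraries, and LIPH, a phosphatidic acid lipase, at 39.1, 21.9, 24.9 and 28.6, against 113 and 112. LIPH passed the filter of 40 through the senescent libraries alone. PNPLA3, a lipid droplet hydrolase, stood at 69.7, 104, 85.1 and 71, against 271 and 277 in the senescent libraries, and WFDC1, a secreted protein of the whey acidic protein family, at 103, 108, 73.4 and 117, against 327 and 309.7. SLC43A2, an amino acid transporter, stood at 21.9, 23.1, 32.3 and 26.2, against 79.9 and 91.7 in the senescent libraries, and INSC, an adaptor of cell polarity, at 55.8, 97.1, 52.8 and 45.3, against 239 and 243. The histone genes HIST1H2BG and HIST1H4H completed this side and are given with the other histones.

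**Figure D2:**
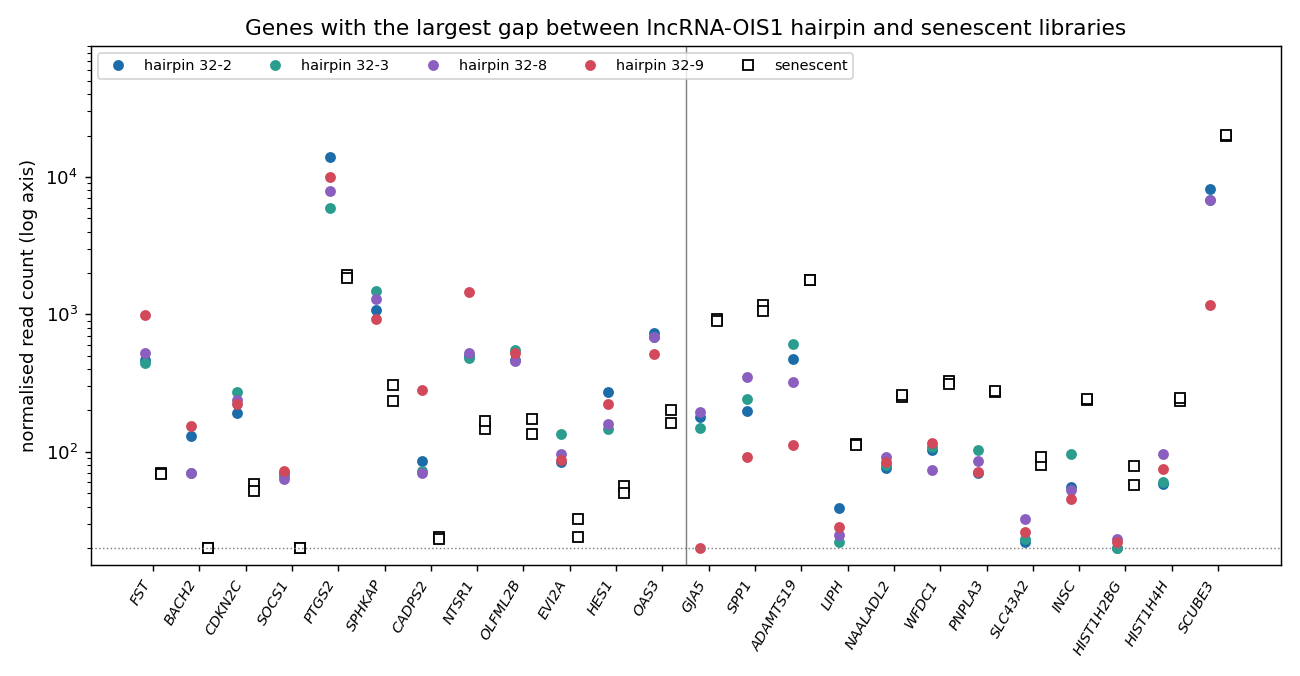
Normalised read count on a log axis of the 12 genes with the widest gap above the senescent libraries (left of the grey line) and the 12 below (right). Filled circles are the 4 hairpin libraries, open squares the senescent libraries, and the dotted line is the floor of 20. FST had 446 or more with every hairpin and at most 69.8 in the senescent libraries, and hairpin 32-9 lies apart for GJA5, NTSR1 and SCUBE3.

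Mitotic genes were higher almost throughout. Of 84 genes tested in 4 lists of mitosis (all 84 symbols of the lists), 81 were higher with no overlap (96.4%) and 0 lower. Over all genes tested these shares were 17.1% and 21.5%. The median log2 change was 1.23, beside −0.02 over all genes tested. All 35 kinetochore and spindle genes, all 11 condensin, cohesin and topoisomerase genes, 18 of 20 mitotic kinases and cyclins and 17 of 18 genes of mitotic exit were higher in every hairpin library than in both senescent libraries. None passed the adjusted threshold over all 4 hairpins and 1, CKAP2L, passed without 32-9. In limma 80 of the 84 had an unadjusted p under 0.05, beside 22.5% of all genes tested. The members' median was 0.83 with hairpin 32-2, 1.64 with 32-3, 1.11 with 32-8 and 1.36 with 32-9. Against the same senescent libraries it was 2.13 in the p53 knockdown, 1.63 in the BRD7 knockdown and 0.93 in the control. The exceptions were AURKA, the spindle kinase Aurora A, CDC25A, a phosphatase that activates CDKs, and FZR1, an activator of the anaphase-promoting complex. AURKA stood at 733, 1461, 1072 and 1532 in the hairpin libraries, against 817 and 693 in the senescent ones, so that 32-2 lay between the senescent libraries.

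Many mitotic promoters carry the letters of the DREAM-bound motifs. The CHR was searched as TTTGAA or TTCGAA and the CCAAT box as CCAAT, on both strands and with overlaps counted, in the 250 bases before the start of each gene (RefSeq, GRCh38.p14, the first listed start per gene). A promoter was matched for 71 of the 84 mitotic genes. Of these, 47.9% held a CHR, 64.8% a CCAAT box and 36.6% both, beside 14.6%, 33.0% and 5.24% of all 27305 promoters of that length. All promoters include those of genes that were not tested. A CCAAT box is not particular to mitotic genes. It was held by 58.8% of promoters matched for the replication list and 68.2% for the chromatin and lamina list. For the unfolded protein response and ATF4 list the share was 78.1%, and for the glycolysis list 30.4%. In that order the median log2 changes of these lists were 1.02, 0.72, 0.07 and 0.07. Whether the motif goes with the change was not tested. A match of letters is a description and not a binding site. The mitotic genes with the widest gap whose promoter held both are printed here, 5′ to 3′ on the gene's strand, with both motifs in capitals. CKAP2L, a spindle protein gene (GRCh38.p14, chr2:112764610-112764859, minus strand), and CENPA, the gene of the centromeric histone (GRCh38.p14, chr2:26785806-26786055, plus strand), read as follows.
CKAP2L: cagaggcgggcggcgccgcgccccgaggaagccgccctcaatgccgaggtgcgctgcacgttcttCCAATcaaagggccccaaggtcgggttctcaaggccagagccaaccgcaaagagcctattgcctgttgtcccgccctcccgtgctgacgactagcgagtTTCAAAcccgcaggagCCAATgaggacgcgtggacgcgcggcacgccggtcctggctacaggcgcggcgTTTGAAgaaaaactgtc
CENPA: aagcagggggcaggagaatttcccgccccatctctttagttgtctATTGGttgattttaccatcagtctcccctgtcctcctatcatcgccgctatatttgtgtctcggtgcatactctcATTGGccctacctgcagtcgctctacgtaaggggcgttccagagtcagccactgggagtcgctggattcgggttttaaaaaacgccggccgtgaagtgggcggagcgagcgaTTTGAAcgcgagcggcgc

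CKAP2L stood at 1366, 1811, 1619.6 and 1284 in the hairpin libraries, against 562 and 468 in the senescent ones (log2 change 1.55, SE 0.17, adjusted p = 0.0788), with an adjusted p of 0.0476 without 32-9. CENPA stood at 135, 220.1, 150.3 and 213 in the hairpin libraries, against 66.6 and 34.4 in the senescent ones (log2 change 1.88, SE 0.35, adjusted p = 0.0827). For both genes the lowest hairpin library was over 2-fold above the highest senescent library, and the senescent libraries of CENPA differed from each other more than those of CKAP2L. MKI67, the Ki-67 proliferation antigen, stood at 2574, 5049.7, 2960.2 and 5658 in the hairpin libraries, against 1231 and 972 in the senescent ones (log2 change 1.81, SE 0.37, adjusted p = 0.0856). Hairpins 32-3 and 32-9 had more MKI67 than 32-2 and 32-8, and every one was above both senescent libraries. KIF4A, a chromokinesin, stood at 521, 834, 604 and 821, against 258 and 202 in the senescent libraries, and SKA1, a kinetochore protein, at 333, 576, 425 and 459, against 171 and 145. CCNA2, the S-phase and mitotic cyclin A2, stood at 711, 1335, 859.7 and 1117, against 383 and 317 in the senescent libraries, and PBK, a mitotic kinase, at 885, 1479, 877 and 1204, against 448 and 389.9. Hairpin 32-2 was the lowest of the 4 for CCNA2, KIF4A and SKA1 and still lay above both senescent libraries. PKMYT1, an inhibitory kinase of CDK1, stood at 130.4, 208, 155 and 254, against 64.6 and 53.1 in the senescent libraries, and CDC25C, the phosphatase that opposes it, at 88.3, 175, 131 and 155, against 48.6 and 41.8. CDK1 and PLK1, the main mitotic kinases, named after their values were seen, had no overlap either. CDK1 stood at 801, 1180, 837 and 863, against 538 and 379 in the senescent libraries, and PLK1 at 628, 1271, 770 and 1193, against 397 and 265.

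Among condensin genes, SMC4, an ATPase subunit, had the widest gap, at 2296, 3908, 2744 and 3255 in the hairpin libraries, against 1083 and 842 in the senescent ones (log2 change 1.65, SE 0.23, adjusted p = 0.0788). NCAPG2 stood at 997, 1460.1, 972 and 1323, against 485 and 374 in the senescent libraries, and NCAPH at 358, 529.9, 434 and 567, against 193 and 149, both subunits of condensin complexes. Among genes of mitotic exit, PTTG1, the securin that holds separase inactive, stood at 951, 1363, 1140.3 and 1372 in the hairpin libraries, against 502 and 476 in the senescent ones (log2 change 1.29, SE 0.17, adjusted p = 0.0788). BIRC5, the chromosomal passenger survivin, stood at 1371, 2430.1, 1778 and 1500.1, against 779 and 607 in the senescent libraries, and CEP55, an abscission protein, at 751, 1471, 835 and 1003, against 409 and 324. None of these 6 genes overlapped. FZR1, in contrast, stood at 280.3, 317, 305 and 639 in the hairpin libraries, against 298 and 316 in the senescent ones, with only 32-9 apart.

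**Figure D3:**
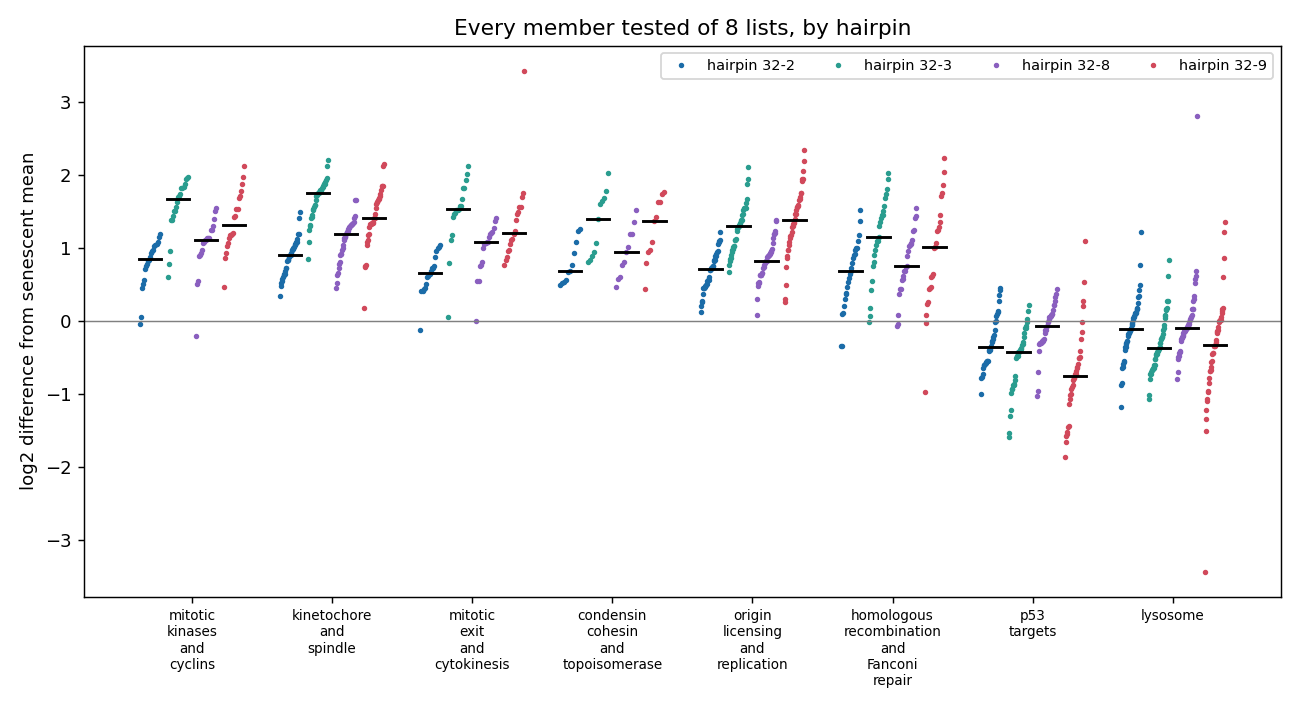
Log2 difference of every tested member of 8 gene lists from the mean of the senescent libraries, by hairpin. Points are genes, sorted within each hairpin, and black bars are medians. In the 4 mitotic lists and the replication list nearly all points lie above 0 for every hairpin, while p53 targets and lysosomal genes scatter on both sides with medians at or below −0.07.

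Replication genes followed the same direction. Of 38 genes of origin licensing and replication, all tested, 37 were higher with no overlap (97.4%, beside 17.1% of all genes tested) and 0 lower. The median log2 change was 1.02. In limma 35 had an unadjusted p under 0.05, beside 22.5% of all genes tested. The list's median was 0.71, 1.30, 0.83 and 1.38 with hairpins 32-2, 32-3, 32-8 and 32-9, and 1.67 in the p53 knockdown, 1.16 in the BRD7 knockdown and 0.90 in the control. TIMELESS, a protein of the replication fork, stood at 737, 911, 795 and 849 in the hairpin libraries, against 382 and 319.8 in the senescent ones (log2 change 1.23, SE 0.13, adjusted p = 0.0788). MCM10, which helps to open origins, stood at 231, 413, 277 and 492, against 120.4 and 95.8 in the senescent libraries (log2 change 1.65, SE 0.34, adjusted p = 0.086). The 4 hairpins were close together for TIMELESS, whose adjusted p was 0.0489 without 32-9, and farther apart for MCM10. GINS2 and GINS3 encode subunits of the replicative helicase. GINS2 stood at 230.2, 359.9, 282 and 311 in the hairpin libraries, against 129 and 119 in the senescent ones, and GINS3 at 120.3, 164, 149 and 206, against 64.9 and 62.1. MCM3, the 1 member that overlapped, stood at 742, 1139, 555 and 1391 in the hairpin libraries, against 587 and 473 in the senescent ones, with 32-8 between the senescent values.

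E2F sites were searched as TTTGGCGC, TTTCCCGC, TTTGCCGC or TTTCGCGC on both strands. Of 34 promoters matched for the 38 replication genes, 35.3% held one, beside 2.79% of all promoters, those of genes not tested included, and 2.94% held a CHR. The stretch around the site in the promoter of GINS2 (GRCh38.p14, chr16:85688955-85689015, minus strand) is shown with the site in capitals, as the replication gene with the widest gap that held one.
GINS2: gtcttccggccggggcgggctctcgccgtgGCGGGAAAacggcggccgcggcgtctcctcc

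Of 18 genes of nucleotide synthesis, 9 were higher with no overlap and 0 lower, with a median log2 change of 0.50, and without 32-9 the numbers were 9 and 2. Among the 9 were RRM2, the regulated subunit of ribonucleotide reductase, and TYMS, thymidylate synthase. RRM2 stood at 1781, 2750.4, 1902 and 3108 in the hairpin libraries, against 938 and 716 in the senescent ones (log2 change 1.50, SE 0.28, adjusted p = 0.0826). TYMS stood at 750.1, 1234, 828 and 873, against 525 and 378 in the senescent libraries. Genes of purine synthesis in the list, such as GART, PAICS and ATIC, overlapped. Of 25 genes of homologous recombination and the Fanconi pathway, 21 were higher with no overlap (84.0%) and 0 lower, beside 17.1% and 21.5% of all genes tested. Their median was 0.82. FANCD2, the Fanconi protein that is ubiquitinated at damaged forks, stood at 293, 418, 299.7 and 479 in the hairpin libraries, against 123 and 84.9 in the senescent ones (log2 change 1.83, SE 0.28, adjusted p = 0.0788). BLM, the Bloom syndrome helicase, stood at 179, 265, 183 and 252, against 75.7 and 63.1 in the senescent libraries, and EXO1, a DNA end nuclease, at 225, 331, 236 and 327, against 115 and 85.9. The gap between the nearest libraries of the groups was 1.25 on the log2 scale for FANCD2, 1.24 for BLM and 0.96 for EXO1.

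Among 18 tested regulators of the E2F, RB and DREAM system (of 19 listed), 9 were higher and 1 lower with no overlap, with a median log2 change of 0.37. For comparison, 17.1% of all genes tested were higher and 21.5% lower with no overlap. FOXM1, a transcription factor of mitotic genes, stood at 807, 1184, 872 and 1411 in the hairpin libraries, against 369.8 and 267 in the senescent ones (log2 change 1.73, SE 0.28, adjusted p = 0.0788). MYBL2, the MuvB partner B-MYB, stood at 353, 589.9, 319 and 516, against 149 and 137 in the senescent libraries (log2 change 1.59, SE 0.28, adjusted p = 0.0822), and E2F1, an activator of replication genes, at 189, 326, 249.7 and 362, against 133 and 133. Every hairpin was above both senescent libraries for these 3 genes, with the widest gap in FOXM1. RBL1, the RB family member p107, stood at 388, 467, 381 and 493, against 242 and 213 in the senescent libraries. E2F7, a repressive E2F and a p53 target, was on the other side at 2368, 2462, 3029 and 1625, against 3224 and 3287 in the senescent libraries, with 32-9 lowest and 32-8 close to them.

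The G1 list was mixed. Of 17 tested members of 19, 8 were higher (47.1%) and 3 lower (17.6%) with no overlap, beside 17.1% and 21.5% of all genes tested. Without 32-9 the numbers were 9 and 5, beside 23.0% and 27.9%. The median log2 change was 0.64. CDKN2C, the CDK4 and CDK6 inhibitor p18, stood at 193, 273, 237 and 224 in the hairpin libraries, against 58.7 and 52 in the senescent ones, 4.16-fold higher (log2 change 2.06, SE 0.17, adjusted p = 0.0788). The hairpins were close to each other, and the adjusted p was 0.0474 without 32-9. CDKN2C was at 760.2 in the control, 282 in the p53 knockdown and 243 in the BRD7 knockdown. CDKN1B, the inhibitor p27, named after its values were seen, stood at 394, 420.3, 411 and 269, against 218 and 209.6 in the senescent libraries, and its adjusted p was 0.117, or 0.0447 without 32-9. CKS1B, a small partner of CDKs, stood at 523, 851, 588 and 669 in the hairpin libraries, against 342 and 291 in the senescent ones, and its relative CKS2 at 679, 913, 699.7 and 980.3, against 501 and 471. The 3 lower members were CDKN1A, CCNE1 and CCND3. CDKN1A, the p53-induced inhibitor p21, stood at 15474, 11146, 12588 and 6989.6 in the hairpin libraries, against 18746 and 22373 in the senescent ones (log2 change −0.88, SE 0.32, adjusted p = 0.188). All hairpins were below both senescent libraries, with 32-2 nearest and 32-9 farthest. CCNE1, cyclin E1, stood at 99.8, 75.6, 108 and 109.6, against 174 and 165 in the senescent libraries, and CCND3, cyclin D3, at 1038, 1114, 960.1 and 997, against 1356 and 1322. CDKN2B, the inhibitor p15, stood at 396, 216, 256 and 610 in the hairpin libraries, against 250.1 and 304 in the senescent ones, and overlapped.

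**Figure D4:**
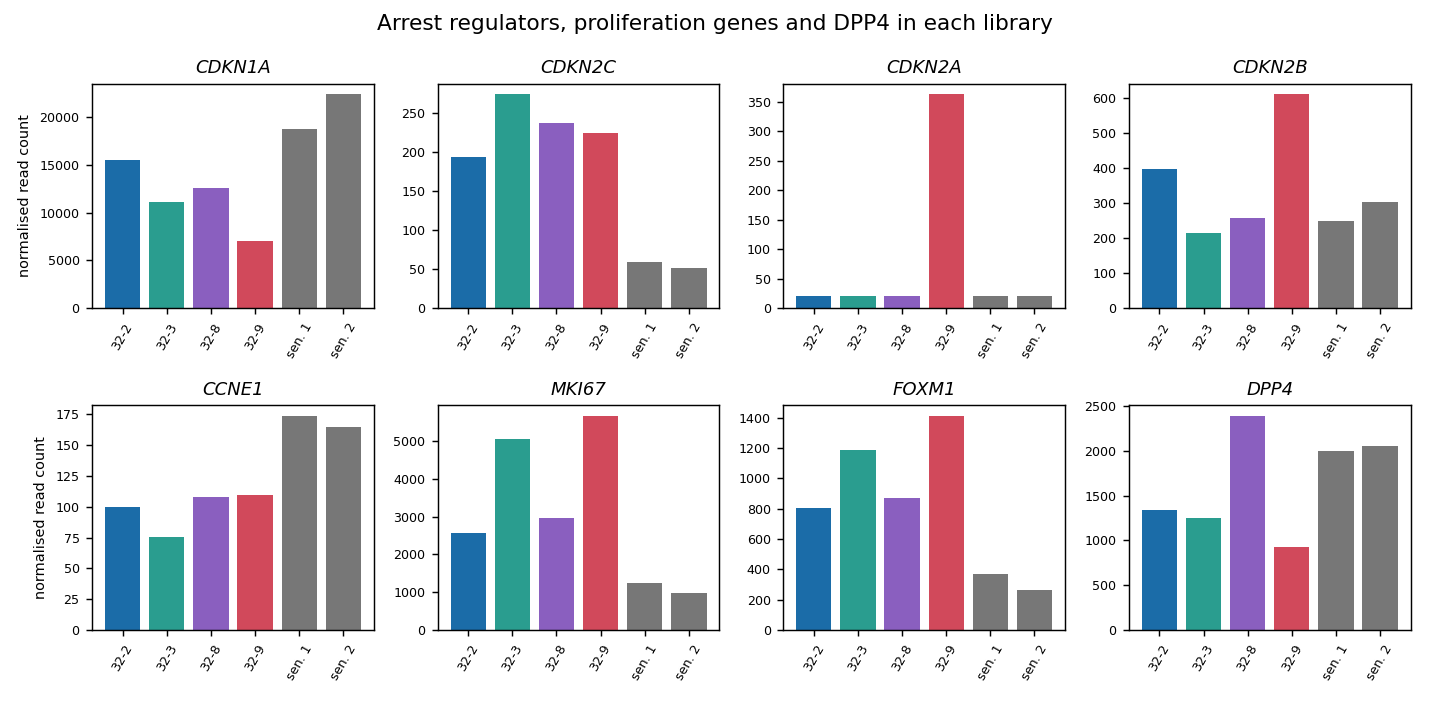
Normalised read count of 8 genes in each of the 4 hairpin libraries (coloured bars) and the 2 senescent libraries (grey bars), on linear axes that start at 0. CDKN2C, MKI67 and FOXM1 were higher and CDKN1A and CCNE1 lower with every hairpin, CDKN2A was above the floor with hairpin 32-9 alone, and CDKN2B and DPP4 overlapped.

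Chromatin and lamina genes were mostly higher. Of 24 tested, 15 were higher (62.5%) and 2 lower (8.33%) with no overlap, beside 17.1% and 21.5% of all genes tested. The median log2 change was 0.72. LMNB1, lamin B1, whose loss marks senescence, stood at 526, 923, 347 and 949.6 in the hairpin libraries, against 224 and 175 in the senescent ones (log2 change 1.68, SE 0.46, adjusted p = 0.119), with 32-8 lowest. HMGB1, a DNA-bending protein, stood at 4613, 4888, 4145 and 4727, against 2440.4 and 2278 in the senescent libraries, 1.95-fold higher, with an adjusted p of 0.0788, or 0.0476 without 32-9. The hairpins differed less from each other for HMGB1 than for LMNB1. HELLS, a chromatin remodeller, stood at 362, 567, 383 and 483, against 209 and 199 in the senescent libraries, and TMPO, a lamina-associated protein, at 1793, 2875, 1652 and 3106, against 981 and 793. HMGA2, an architectural protein of senescence-associated heterochromatin, and H2AFZ, the variant histone H2A.Z, were the 2 lower members. HMGA2 stood at 10883, 10100.4, 6128 and 3908 in the hairpin libraries, against 11452 and 12622 in the senescent ones, and the nearest libraries almost touched. H2AFZ stood at 4544, 6215, 7498 and 4651, against 8822 and 8634 in the senescent libraries.

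Histone genes of the HIST clusters went the other way, a family looked at after values were seen. Of 11 tested, 8 were lower with no overlap (72.7%) and 0 higher, beside 21.5% and 17.1% of all genes tested. The median log2 change was −1.25. The family's median was −1.07, −1.58, −0.85 and −1.07 with hairpins 32-2, 32-3, 32-8 and 32-9, and −1.75 in the p53 knockdown, −1.56 in the BRD7 knockdown and −1.91 in the control. Transcripts of these genes mostly end without a polyA tail, so polyA libraries hold only the polyadenylated forms. Their coding sequences are near-identical within a histone type, so reads may be split between copies. HIST1H4H stood at 58.7, 60.1, 95.8 and 74.7 in the hairpin libraries, against 233 and 246 in the senescent ones (log2 change −1.76, SE 0.24, adjusted p = 0.0788). HIST1H2BK stood at 434, 393, 579 and 577, against 1132 and 1296 in the senescent libraries, and HIST2H2BE at 175, 159, 228 and 201, against 429.9 and 525. All 4 hairpins were well below both senescent libraries for HIST1H4H, HIST1H2BK and HIST2H2BE. HIST1H2BG stood at 20, 20, 23.2 and 22.1, at or next to the floor, against 56.9 and 79.2 in the senescent libraries, through which alone it passed the filter of 40, so no p is given for it. The 3 members that overlapped were HIST1H1C, HIST1H2AG and HIST1H2BH.

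Targets of p53 were lower or overlapped. Of 34 tested (all listed), 14 were lower (41.2%) and 1 higher (2.94%) with no overlap, beside 21.5% and 17.1% of all genes tested. Without 32-9 the numbers were 15 and 2, beside 27.9% and 23.0%. The median log2 change was −0.43. In limma 8 of the 34 had an unadjusted p under 0.05, a share close to the 22.5% of all genes tested. The median differed between hairpins, at −0.36 with 32-2, −0.43 with 32-3, −0.07 with 32-8 and −0.76 with 32-9, beside −1.04 in the p53 knockdown, −0.35 in the BRD7 knockdown and −1.14 in the control. CCNG1, cyclin G1, stood at 3309, 2881, 2376 and 3022 in the hairpin libraries, against 4912 and 4811 in the senescent ones (log2 change −0.76, SE 0.14, adjusted p = 0.0827). ZMAT3, a p53-induced RNA-binding protein, stood at 3998, 2769.8, 4097 and 1696, against 5036 and 5113 in the senescent libraries, and C12orf5, the file's symbol for the metabolic enzyme TIGAR, at 489, 441, 673 and 416, against 856 and 828. All hairpins were below both senescent libraries for these 3 genes, with 32-9 lowest for ZMAT3 and C12orf5. MDM2, the ubiquitin ligase of p53, stood at 2141, 2217, 3657 and 1683 in the hairpin libraries, against 3127 and 3192 in the senescent ones, with 32-8 above both. PMAIP1, which encodes the BH3-only protein NOXA, stood at 3177, 3620.3, 4485 and 1744, against 4485 and 4994 in the senescent libraries, and overlapped. BBC3, the BH3-only protein PUMA, was the 1 member on the other side, at 90.4, 78, 84.4 and 77.9, against 62.3 and 72.8 in the senescent libraries.

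Genes of RAS and MAPK output were higher or overlapped. Of 34 tested of 36 listed, 18 were higher (52.9%) and 0 lower with no overlap, beside 17.1% and 21.5% of all genes tested. Without 32-9 the numbers were 22 and 2, beside 23.0% and 27.9%. The median log2 change was 0.54. Against the same senescent libraries the list's median was 0.73, 0.37, 0.46 and 0.61 with the 4 hairpins, 0.49 in the p53 knockdown, 0.04 in the BRD7 knockdown and −0.61 in the control. IER3, an immediate early gene, stood at 2352, 1378, 1418 and 2874 in the hairpin libraries, against 506 and 608 in the senescent ones (log2 change 1.78, SE 0.35, adjusted p = 0.0856). JUNB, an AP-1 subunit, stood at 1329.6, 875, 823 and 735, against 364 and 415 in the senescent libraries, and MAFF, a small MAF protein, at 1197, 1041, 1421 and 1091, against 531 and 548. FOSL1, the AP-1 subunit FRA1, named after its values were seen, stood at 2879, 4847, 4959 and 3407, against 2460.4 and 2379 in the senescent libraries. Every hairpin was above both senescent libraries for these 4 genes. DUSP6, a phosphatase of ERK, stood at 8403, 5182, 7949.9 and 9871 in the hairpin libraries, against 6649 and 6064 in the senescent ones, and SPRY2, a feedback inhibitor of RAS signalling, at 7118, 5140.2, 4857 and 5242, against 4103 and 3944. DUSP6 overlapped and SPRY2 did not. NRAS, a RAS family member named after its values were seen, stood at 3389.8, 3265, 3303 and 2897 in the hairpin libraries, against 1908 and 1928 in the senescent ones, with an adjusted p of 0.0788, or 0.0322 without 32-9. MYC stood at 589.9, 745, 618 and 1689.9, against 793 and 817 in the senescent libraries, below both with 3 hairpins and above both with 32-9.

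Inflammatory secretory factors split the hairpins. Of 23 tested of 30 listed, 4 were higher with no overlap over all 4 hairpins and 0 lower. The share higher, 17.4%, was close to the 17.1% of all genes tested. Without 32-9 the number was 18, beside 23.0% of all genes tested. The list's median was 1.72 with hairpin 32-2, 0.85 with 32-3, 1.73 with 32-8 and −0.14 with 32-9, beside 0.08 in the p53 knockdown and 1.02 in the BRD7 knockdown. IL1B, interleukin 1 beta, stood at 12903, 4790.4, 18474 and 60.1 in the hairpin libraries, against 1035 and 3345 in the senescent ones. It was above both senescent libraries with 32-2, 32-3 and 32-8 and far below both with 32-9, and the senescent libraries themselves were far apart. CXCL8, listed as IL8, stood at 17616, 4734, 12903 and 212 in the hairpin libraries, against 932 and 2022 in the senescent ones, and CXCL1 at 1144, 629, 1513 and 20, against 99.9 and 185, both neutrophil chemokines. Both repeat that arrangement, with CXCL1 at the floor in 32-9. CXCL3, a chemokine named after its values were seen, stood at 45.7, 47.8, 43.9 and 20 in the hairpin libraries and at 20 in both senescent ones. CXCL3 passed the filter of 40 through hairpins 32-2, 32-3 and 32-8 alone, so no p is given for it. IL6 stood at 136, 20, 58.8 and 20 in the hairpin libraries and at 20 in both senescent ones. PTGS2 and TNFAIP3, an inhibitor of NF-kappaB signalling, were higher with all 4. TNFAIP3 stood at 144, 88.4, 349 and 116 in the hairpin libraries, against 41.8 and 82.8 in the senescent ones. IL1R1, the receptor of interleukin 1, named after its values were seen, did not split the hairpins. It stood at 2528, 2364, 2518 and 1907 in the hairpin libraries, against 878 and 913 in the senescent ones (log2 change 1.37, SE 0.14, adjusted p = 0.0788), with an adjusted p of 0.0129 without 32-9.

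Interferon response genes were higher in part. Of 48 tested of 50 listed, 20 were higher (41.7%) and 2 lower (4.17%) with no overlap, beside 17.1% and 21.5% of all genes tested. The median log2 change was 0.55, and without 32-9 the higher number was 28, beside 23.0% of all genes tested. The list's median was 0.69, 0.66, 0.53 and 0.10 with hairpins 32-2, 32-3, 32-8 and 32-9, and 0.08 in the p53 knockdown, 0.77 in the BRD7 knockdown and 0.55 in the control. OAS3, a synthetase that senses double-stranded RNA, stood at 731, 683, 681 and 512 in the hairpin libraries, against 200.4 and 161 in the senescent ones, 3.59-fold higher (log2 change 1.85, SE 0.18, adjusted p = 0.0788). IFIH1, the RNA sensor MDA5, stood at 151, 119.9, 119 and 87.8, against 41.8 and 39.7 in the senescent libraries (log2 change 1.53, SE 0.23, adjusted p = 0.0788), and SAMD9, an antiviral protein, at 563, 747, 525 and 1215, against 276 and 251. Every hairpin was well above both senescent libraries for these 3, with adjusted p-values of 0.0389 for OAS3 and 0.0469 for IFIH1 without 32-9. IFIT1, which binds viral RNA, stood at 324, 399, 174 and 159 in the hairpin libraries, against 103 and 117 in the senescent ones. OAS1, OAS3's relative, stood at 84.6, 69, 41.8 and 33.7 and MX1, an antiviral GTPase, at 30.6, 34.3, 32.3 and 37.8, and both were at 20 in the senescent libraries. MX1 had an adjusted p of 0.0827, or 0.0469 without 32-9, with the senescent spread hidden by the floor. The 2 lower members were SP110, a nuclear body protein, at 332, 457, 364 and 307, against 563 and 655 in the senescent libraries, and IFITM3, a membrane protein that blocks viral entry, at 2996, 3342, 2891 and 2699, against 3564 and 3720.4.

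The element bound by interferon-induced factors was searched as GAAA, any 2 letters and again GAAA on both strands. It was held by 3.07% of all promoters, and no share is given for the list because promoters were matched for only 37 of its 48 tested genes, too few to describe the list. The promoter of OAS3 (GRCh38.p14, chr12:112938224-112938473, plus strand) is shown, with matches in capitals, as the member with the widest gap that held one.
OAS3: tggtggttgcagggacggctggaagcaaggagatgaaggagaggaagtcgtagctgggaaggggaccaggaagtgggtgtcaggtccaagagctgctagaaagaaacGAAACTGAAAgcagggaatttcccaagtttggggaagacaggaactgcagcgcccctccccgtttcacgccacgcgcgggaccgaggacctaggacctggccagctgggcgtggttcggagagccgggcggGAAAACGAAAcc

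Of 17 antigen presentation genes, 7 were higher (41.2%) and 0 lower with no overlap, beside 17.1% and 21.5% of all genes tested. The median log2 change was 0.25. An unadjusted limma p under 0.05 was seen for 4 of the 17, beside 22.5% of all genes tested. Without 32-9, 12 were higher, beside 23.0% of all genes tested. The median was then 0.39, and limma called 2 higher, beside 0.641% of all genes tested. ERAP2, a peptidase that trims peptides for HLA molecules, stood at 898, 809.6, 760.4 and 1233 in the hairpin libraries, against 343 and 354 in the senescent ones (log2 change 1.38, SE 0.21, adjusted p = 0.0788), with an adjusted p of 0.043 without 32-9. PSMB9, an immunoproteasome subunit, stood at 204, 146, 106 and 154, against 62.1 and 58.1 in the senescent libraries, and HLA-B, whose reads may be shared with other class I genes, at 6877, 2701, 5001 and 3199.8, against 1564 and 1804. ERAP2 stood at 342 in the p53 knockdown and 447 in the BRD7 knockdown, both below every lncRNA-OIS1 hairpin.

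Secreted proteases and growth factors mostly overlapped. Of 37 tested of 39 listed, 3 were higher (8.11%) and 5 lower (13.5%) with no overlap, beside 17.1% and 21.5% of all genes tested. The median log2 change was 0.13, and without 32-9 the numbers were 5 and 7 and the median 0.035. MMP1, the interstitial collagenase, stood at 63004, 40950, 110361 and 211607 in the hairpin libraries, against 45322 and 50370.2 in the senescent ones, with 1 hairpin below both and 3 above. HGF, hepatocyte growth factor, stood at 519, 601, 1414 and 2621, against 224 and 283 in the senescent libraries (log2 change 2.04, SE 0.70, adjusted p = 0.172), with 32-8 and 32-9 well above the other hairpins. PLAT, tissue plasminogen activator, was the widest gap on the lower side at 23015, 25365, 17757 and 4952, against 40950 and 43305 in the senescent libraries (log2 change −1.48, SE 0.69, adjusted p = 0.276). PLAUR, the urokinase receptor, stood at 2382, 2364, 2399 and 3252, against 1708 and 2028 in the senescent libraries, above both with every hairpin.

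Matrix genes were mixed. Of 34 tested fibrillar matrix genes of 36 listed, 9 were higher (26.5%) and 2 lower (5.88%) with no overlap. Over all genes tested these shares were 17.1% and 21.5%. The median log2 change was 0.30. Without 32-9, 15 were higher, beside 23.0% of all genes tested, and the median was 0.43. Over all libraries left out in turn the median ranged from 0.088 to 0.43. COL14A1, a fibril-associated collagen, was at 20 in both senescent libraries and stood at 63.7, 107, 134 and 50.6 in the hairpin ones. DCN, the proteoglycan decorin, stood at 144, 157, 264 and 281 in the hairpin libraries, against 71.7 and 68.2 in the senescent ones, and at 11040.1 in the control. All hairpins were above both senescent libraries for COL14A1 and DCN, and for DCN all were far below the control. COL3A1, a fibrillar collagen, stood at 13546, 6163, 6851 and 3612, against 2914 and 2509 in the senescent libraries, and TNC, tenascin C, at 14100.2, 8845, 8189 and 22177, against 6102 and 6172. LOX, the enzyme that cross-links collagen, was lower at 1841, 1685, 1366 and 2712, against 4885 and 4936 in the senescent libraries, 2.67-fold lower (log2 change −1.42, SE 0.27, adjusted p = 0.0831), and its adjusted p was 0.0474 without 32-9. COL1A1, the main fibroblast collagen, stood at 18746, 11254, 8078 and 16210.4 in the hairpin libraries, against 9914 and 8351 in the senescent ones, and overlapped. Of 18 contractile and TGF-beta response genes tested of 20 listed, 3 were higher and 4 lower, or 16.7% and 22.2%, beside 17.1% and 21.5% of all genes tested. Their median was −0.26, and −0.079 without 32-9. TAGLN, an actin-binding protein of contractile cells, stood at 1090.1, 389, 449 and 732, against 1634 and 1660.4 in the senescent libraries, and ACTA2, smooth muscle actin, at 226, 206, 254 and 197, against 274 and 280.3. MYH9, a non-muscle myosin, was on the other side at 16459, 17181, 15672 and 19544, against 12433 and 11698 in the senescent libraries. Of 26 basement membrane and integrin genes, 1 was higher (3.85%), 3 were lower (11.5%) and 22 overlapped, with a median of −0.03. Without 32-9, 8 were higher and 4 lower with a median of 0.26, and hairpin 32-9 had a median of −0.70 against 0.46, −0.03 and 0.11 for the other 3.

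Lysosomal genes were lower in part. Of 44 tested (all listed), 15 were lower (34.1%) and 2 higher (4.55%) with no overlap, beside 21.5% and 17.1% of all genes tested. Without 32-9 the numbers were 18 and 4, beside 27.9% and 23.0%. The median log2 change was −0.23. An unadjusted limma p under 0.05 was seen for 8 of the 44, beside 22.5% of all genes tested. GLB1, the lysosomal beta-galactosidase whose activity stains senescent cells, stood at 1094, 1029.6, 1029 and 1023 in the hairpin libraries, against 1173 and 1281 in the senescent ones (log2 change −0.23, SE 0.08, adjusted p = 0.163). The hairpins were within a narrow band just below the senescent libraries. GLA, alpha-galactosidase, stood at 376, 424, 526 and 496, against 850.2 and 862 in the senescent libraries (log2 change −0.92, SE 0.16, adjusted p = 0.0806), and SGSH, a heparan sulfatase, at 824, 649, 797 and 419, against 1057 and 1062. GUSB, beta-glucuronidase, was higher at 267, 278, 224 and 365, against 162 and 151 in the senescent libraries. Of 16 autophagy genes, 8 were lower and 2 higher, with a median of −0.24. GABARAPL1, an ATG8 family member, stood at 458, 470.3, 565 and 389.9, against 935 and 856 in the senescent libraries, and BECN1, a subunit of the lipid kinase that starts autophagosomes, at 1153, 1113, 1179.8 and 784, against 1565 and 1563. BECN1 had an adjusted p of 0.153, or 0.0489 without 32-9.

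Ribosomal protein genes and genes of the respiratory chain, families looked at after values were seen, were slightly lower. Of 78 genes tested with ribosomal protein symbols, 55 were lower (70.5%) and 1 higher (1.28%) with no overlap, beside 21.5% and 17.1% of all genes tested. The median log2 change was −0.29. Without 32-9 limma called 10 lower, beside 0.673% of all genes tested. The symbols include paralogues such as RPS27L, with the lowest log2 change at −0.69, and RPL39L, the 1 higher. Many have processed pseudogenes that can share reads. RPS15A stood at 1098, 1116, 1103 and 1189.8 in the hairpin libraries, against 1586 and 1631 in the senescent ones, 1.43-fold lower (log2 change −0.51, SE 0.07, adjusted p = 0.0788), and RPS10 at 3386, 3455, 3463 and 4087, against 5092 and 5365. The hairpins lay close together for RPS15A, and for RPS10 32-9 lay above the other 3. Without 32-9 the adjusted p was 0.043 for RPS15A and 0.043 for RPS10, where it was 0.0831 with it. Of 36 complex I subunits 22 were lower (61.1%), and of 19 subunits of cytochrome c oxidase and reductase 16 (84.2%). Of 18 genes with ATP synthase symbols, the pseudogene ATP5EP2 and the non-subunits ATP5S and ATP5SL included, 13 were lower (72.2%). In all 3 families 0 were higher (1 in complex I without 32-9). The medians were −0.25 for complex I, −0.26 for ATP synthase and −0.30 for cytochrome c oxidase and reductase. NDUFC2, a complex I subunit, stood at 746, 757, 776 and 427, against 1377 and 1536 in the senescent libraries, and ATP5G1, a subunit of the ATP synthase ring, at 1098, 1042, 1098 and 838, against 1779.8 and 1945. Their adjusted p-values were 0.0988 for NDUFC2 and 0.0788 for ATP5G1, and without 32-9 0.0427 for NDUFC2 and 0.0436 for ATP5G1. Against the same senescent libraries the medians of ribosomal proteins and complex I were −0.16 and −0.35 in the p53 knockdown, −0.37 and −0.32 in the BRD7 knockdown and −0.46 and −0.64 in the control.

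Sterol genes were higher in part. Of 31 tested cholesterol and fatty acid genes of 32 listed, 12 were higher (38.7%) and 0 lower with no overlap, or 12 and 1 without 32-9. The median log2 change was 0.20. An unadjusted limma p under 0.05 was seen for 8 of the 31, beside 22.5% of all genes tested. INSIG1, the sterol-sensing brake on SREBP, stood at 2532, 1716, 2492 and 2462 in the hairpin libraries, against 712 and 727 in the senescent ones, 3.16-fold higher (log2 change 1.66, SE 0.18, adjusted p = 0.0788). SCD, stearoyl-CoA desaturase, stood at 3019, 5782, 2155 and 7465, against 1613 and 1363 in the senescent libraries. Hairpins 32-3 and 32-9 were higher than 32-2 and 32-8 for SCD, but not for INSIG1. The remaining metabolic lists had medians near that of all genes. Of 33 genes of the unfolded protein response and ATF4, 7 were higher and 3 lower (median 0.07), of 24 glycolysis genes 4 and 3 (0.07), and of 28 ribosome biogenesis genes 2 and 7 (−0.14). Without 32-9 these numbers were 9 and 6, 4 and 6, and 2 and 12, and the glycolysis median was −0.054. Beside these counts, 17.1% of all genes tested were higher and 21.5% lower with no overlap, or 23.0% and 27.9% without 32-9. HK2, hexokinase 2, stood at 2038, 2676, 2504 and 2998, against 4470.4 and 4141 in the senescent libraries, and PFKP, platelet phosphofructokinase, at 1544, 1654, 1640.2 and 2781, against 969 and 933, on opposite sides. PFKP had an adjusted p of 0.116, or 0.0427 without 32-9. PDIA4, a disulfide isomerase of the endoplasmic reticulum, stood at 6949.7, 6279.6, 6422 and 6269, against 4932 and 4907 in the senescent libraries, above both with every hairpin.

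**Figure D5:**
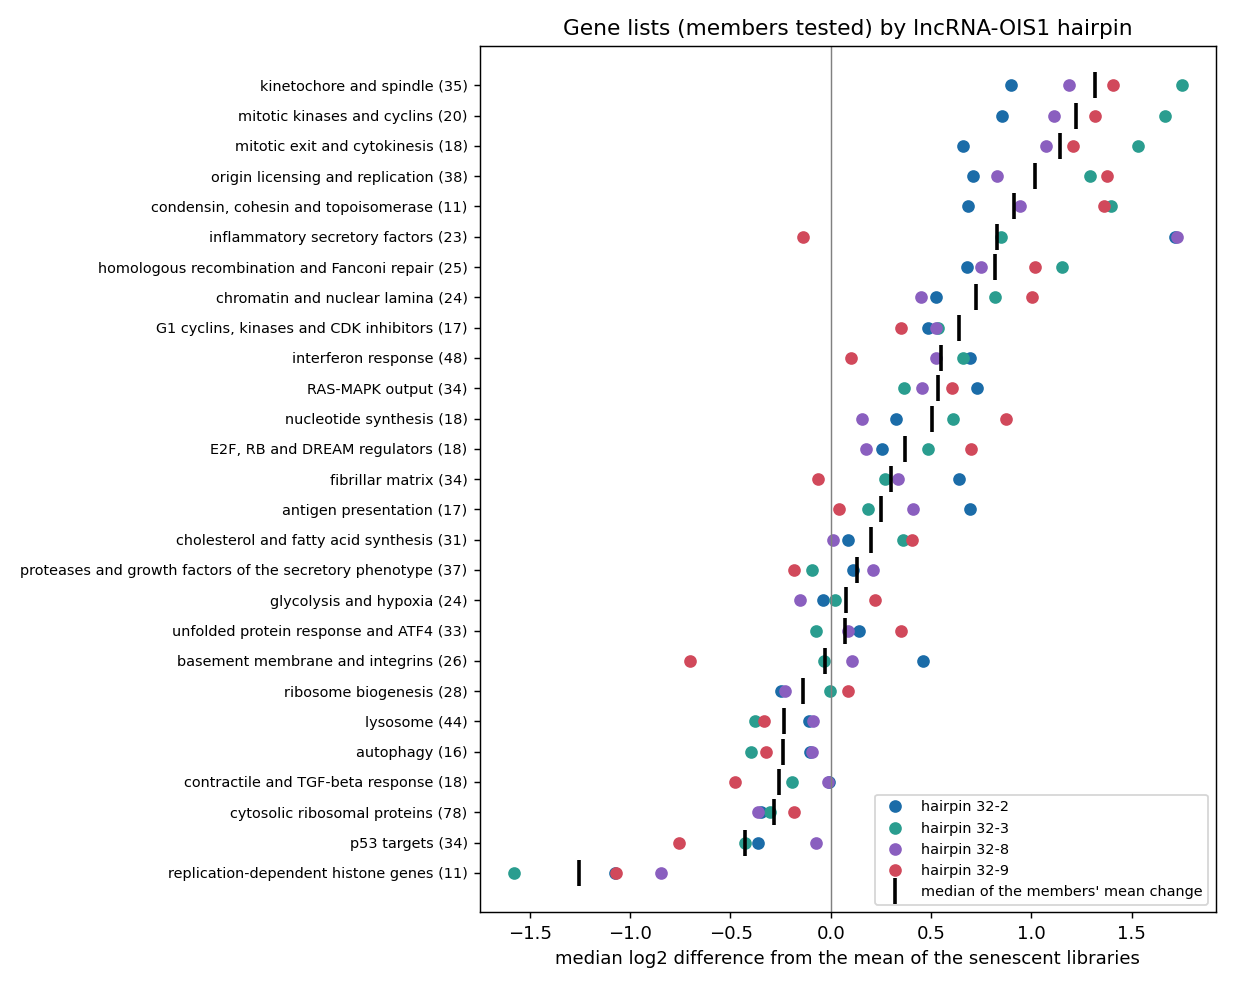
Median log2 difference from the mean of the senescent libraries for 25 gene lists and 2 families, with the number of members tested in brackets. Circles are the 4 hairpins and black bars the median of the members' mean change. The mitotic and replication lists lie between 0.66 and 1.75 for every hairpin, and hairpin 32-9 lies apart from the other 3 for inflammatory factors at −0.14 and for basement membrane genes at −0.70.

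DPP4, a cell-surface peptidase that published work on lncRNA-OIS1 names as its target, stood at 1345, 1249, 2390 and 923 in the hairpin libraries, against 1999 and 2051 in the senescent ones (log2 change −0.55, SE 0.37, adjusted p = 0.436). It was lower than both senescent libraries with 3 hairpins and higher than both with 32-8. It stood at 361 in the p53 knockdown, 1054 in the BRD7 knockdown and 1230.2 in the control. Among mesenchymal markers, 5 were higher (26.3%) and 3 lower (15.8%) with no overlap, beside 17.1% and 21.5% of all genes tested. Without 32-9 the numbers were 8 and 3. FAP, fibroblast activation protein, a peptidase of the same family as DPP4, stood at 109.8, 124, 231 and 248, against 32.9 and 55.3 in the senescent libraries, and THY1, a fibroblast surface antigen, at 2692, 4510.4, 3660.1 and 5618, against 5921 and 5735. FAP was at 1944 in the control, above all of these.

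Genes called by limma without hairpin 32-9 include members of several of these lists. The Notch target HEY1 stood at 62.1, 56.9, 51.7 and 20 in the hairpin libraries and at 20 in both senescent ones. Its adjusted p was 0.0385 without 32-9 and 0.252 with it, again with the senescent spread hidden by the floor. NOTCH3, a Notch receptor, was on the lower side at 150.1, 102, 102 and 85.8, against 329.7 and 348 in the senescent libraries (log2 change −1.66, SE 0.24, adjusted p = 0.0788), and was not called without 32-9 (0.0525). TBX3, a transcription factor that represses CDK inhibitors, stood at 5317, 4755, 5195 and 5286, against 3017 and 2846 in the senescent libraries, with an adjusted p of 0.0474 without 32-9. The strongest calls on the lower side without 32-9 rest on genes that 32-9 places elsewhere. CPA4, a carboxypeptidase, was at the floor with 3 hairpins and at 100.7 with 32-9, against 90.2 and 91 in the senescent libraries. Its adjusted p was 0.275, or 0.00653 without 32-9, where the floor leaves the 3 hairpins without a measured spread. EEF1A2, a translation elongation factor, was at the floor with 3 hairpins and at 175.4 with 32-9, against 46.7 and 44.7 in the senescent libraries. Without 32-9 it passed the filter of 40 through the senescent libraries alone, so no p is given for it. HEY1, NOTCH3, TBX3, CPA4 and EEF1A2 were named after their values were seen.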

How the data were processed

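PolyA RNA of BJ fibroblasts was measured in 9 libraries, prepared with a TruSeq kit per the labels. Per the submitters' processing notes the build was hg19 and the tools were TopHat2 and HTSeq, with no roles or versions. The analysis started from 1 deposited gene table of normalised signal, in which the authors' values are quantile-normalised read counts with a floor, per the file's name and its values, which are the same set in every library. Equal distributions make a value depend on the gene's rank and leave depth, and with it the precision of single values, unknown. Strandedness of the counting is not stated. Of 13745 genes, 1030 had no symbol and 21 symbols had become dates. Names were filled for 564 of these from a gene name table.

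Groups came from the sample labels. A linear model was fitted in R 4.3.3 with limma 3.58.1 to log2 values without a pseudocount for 12481 genes with a highest value of at least 40 over the 9 libraries. The fit held 5 groups, left 4 residual degrees of freedom and moderated variances with a trend. Tests were two-sided, with Benjamini-Hochberg adjustment over all genes tested. An exact permutation test of 4 libraries against 2 cannot go below p = 0.0667 and was not used. The 29 gene lists (732 symbols, 699 matched), the members and the tests were chosen with earlier results of these data known. Named genes were the 12 with the widest gap in each direction, up to 4 per list and direction, and 22 fixed genes, and others are said to have been named after their values were seen. The report prints 147 of these 218 genes, and results of some others are not reported here. Lists are described by counts and medians, with no test of a list. As alternatives, a pseudocount of 10 or 50 was added, the filter was dropped or replaced by a mean of 80 or more, and median-of-ratios scaling, the 6 libraries alone, no trend, a replicate block and the omission of each library were tried. The fit was tested on simulated data. Promoters came from RefSeq (GRCh38.p14), and no coordinates of the deposited table were used.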

Additional observations from a re-analysis of the deposited data

Results flagged for a closer look

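For 18 of the 147 genes named in the report and measured in the 4 hairpin libraries, 1 hairpin lay far from the other 3, at a distance, relative to the range of the 4, that chance alone gives for about 5% of genes (Dixon's test). In 16 of the 18 the outlying library was that of hairpin 32-9. It lay above the other 3 for CADPS2 (283.9), NTSR1 (1467.3), PLAUR (3251.8), PFKP (2780.7), RPS10 (4087), FZR1 (639.2), CDKN2A (362.3), CPA4 (100.7) and EEF1A2 (175.4), and the last 3 were at the floor with every other hairpin. It lay below the other 3 for GJA5 (20), SCUBE3 (1170.3), BECN1 (784), HEY1 (20), NDUFC2 (427.2), CXCL3 (20) and CDKN1B (268.8). Hairpin 32-3 lay below the rest for INSIG1, at 1715.9, and hairpin 32-2 above the rest for GLB1, at 1094.2. Many of the 147 genes were chosen by these same values, some because they are called without 32-9. Values tied or cut at the floor also fix or distort the ratio. The numbers of 18 and 16 are therefore descriptions and cannot be set against the 5%.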

How the results depend on the processing

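The number of genes called by limma was 0 in both directions with pseudocounts of 10 and 50, a filter on a mean of 80, median-of-ratios scaling and the 6 libraries alone. With no filter on low values 22 genes were called higher and 35 lower, of which 41 were among the genes tested and 16 lay under the filter, and without the variance trend 1 was called higher (SOCS1). With each library left out in turn, 0 to 80 genes were called higher and 0 to 84 lower, the highest numbers without hairpin 32-9, and the numbers with no overlap were 2396 to 2874 higher and 2942 to 3476 lower. The median log2 change of the G1 list, 0.64 in the report, was 0.44 with a pseudocount of 50, 0.54 with a mean of at least 80, 0.55 without hairpin 32-3 and 0.50 without senescent library 2, and 0.50 to 0.64 over all libraries left out. That of proteases and growth factors, 0.13, was −0.053 with a mean of at least 80. That of inflammatory factors ranged from 0.53 to 1.44 and that of basement membrane genes from −0.19 to 0.26 with a library left out. For 5 of 218 named genes, none of them called, the sign of the log2 change turned. With a library left out, IL1B ranged from −0.27 (without hairpin 32-8) to 2.49 (without 32-9) and was also −0.09 without 32-2 and −0.22 without senescent library 1. FZR1 ranged from −0.029 (without 32-9) to 0.37, SOCS3 from −0.37 to 0.27 (without 32-9), MYC from −0.31 (without 32-9) to 0.19, and HIST1H2AG from −0.30 to 0.25 (without senescent library 2), with 0.06 without 32-2. The causes were not tested.

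Hairpin and senescent libraries carry shared numbers in their titles. Deviations of same-numbered libraries correlated at −0.071 and −0.099, with 2 pairs. The deviations of the 2 senescent libraries mirror each other, so these values cannot decide whether the number pairs the libraries. With that number as a replicate block limma called 0 genes in either direction, but that fit left 1 residual degree of freedom and cannot decide it either. In it the log2 change was −0.04 for FZR1, 0.26 for SOCS3 and −0.28 for MYC. Depth is unknown, so counting error limits low values to an unknown degree.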
